A study of Mus musculus with 12 samples.

Results

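Nuclear receptors are transcription factors that respond to small lipophilic ligands, and 32 genes of this group were followed across 12 RNA-seq libraries of mouse central nervous system (CNS) myeloid cells. The members were taken by gene symbol from a list of 28 receptors and 4 coregulators, a list drawn up with earlier results of these data known although its rule uses no measured value, and all 32 were found among the 25904 genes of the table. Of these, 27 passed the filter for testing (3 or more of the 12 libraries at a normalized count of 10 or above), and 5 did not: Ppara, Rxrg, Rarb, Vdr and Thrb. A member can pass that filter through 1 group alone, so the tested members are not a sample of all receptors.

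All mice were C57BL/6, and each of 4 groups had 3 libraries. WT microglia were sorted from Tgfbr2fl/fl mice, which carry floxed alleles of the type II TGF-beta receptor gene and no Cre. KO microglia came from Cx3cr1CreER/+Tgfbr2fl/fl mice, whose tamoxifen-inducible Cre is driven by Cx3cr1 and sits on 1 allele of that gene, so that KO and WT cells also differ in Cx3cr1 dose. For the macrophages, Cx3cr1CreER/+R26DTA/+ mice were irradiated and received bone marrow of either genotype. After 6 weeks, tamoxifen was given to deplete the microglia of these hosts, and the CNS cells that repopulated from the marrow were collected as WT or KO macrophages. In comparisons of macrophages with microglia, cell origin thus cannot be told apart from irradiation, marrow transfer and depletion. Every group received tamoxifen (3 daily doses of 5 mg) and was sorted 18 to 22 days later from live Ly6C-negative CD11b-positive cells. The gate took F4/80-low cells for WT and F4/80-high cells for KO, so gate and genotype cannot be told apart. The gate as labelled holds no marker that separates donor from remaining host cells. Cells of 1 to 5 mice were pooled for a library, which makes the p-values a measure of the spread between pools, and no age or sex of the mice is given in the labels.

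As background, most nuclear receptors bind DNA at copies or variants of the half-site AGGTCA, alone or as dimers, and many of the metabolite-sensing ones pair with a retinoid X receptor (RXR). Ligand binding exchanges corepressors such as NCoR1 for coactivators of the NCOA family. In tissue macrophages, PPAR and LXR receptors are known for control of lipid uptake, storage and cholesterol efflux, retinoic acid receptors for tissue-specific programmes, and the glucocorticoid receptor for anti-inflammatory gene induction.

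The libraries held 2615404 to 6364994 reads. Levels are normalized counts, that is reads scaled by each library's size factor, and a single read was worth 0.718 to 1.60 of them. Tgfbr2 transcript was lower in KO than in WT cells of both origins, with group means of 2193 against 2898 in microglia and 2235 against 3303 in macrophages. The gene-level count does not resolve the floxed exon. The 9 defining microglia markers summed to 73500 to 96800 normalized counts in WT microglia, 5700 to 6370 in the KO microglia libraries, 26400 to 28500 in the WT macrophage libraries and 7240 to 8260 in the KO macrophage libraries. None of the 9 was at 0 in any group. They include Cx3cr1, whose gene dose also differs between KO and WT cells. The Y-linked Ddx3y was high in all 3 KO microglia libraries, in replicate 3 of the WT microglia, in replicate 3 of the WT macrophages and in replicate 2 of the KO macrophages, and was at most 8.90 in the other libraries, so the sexes were spread unevenly over the groups. Replicate numbers are names in accession order and pair nothing.

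The proximal promoters of the 2 members with the largest differences between KO and WT microglia, Pparg and Rara, are shown with the letters that matched a searched motif in capitals. They are RefSeq windows of build GRCm38.p6, 250 bases before to 50 bases after a transcription start, read 5′ to 3′ on the plus strand, and each printed window holds a match. A further Rara window overlaps the first, holds the same CACGTG and is not printed.
Pparg, chr6:115360894-115361193: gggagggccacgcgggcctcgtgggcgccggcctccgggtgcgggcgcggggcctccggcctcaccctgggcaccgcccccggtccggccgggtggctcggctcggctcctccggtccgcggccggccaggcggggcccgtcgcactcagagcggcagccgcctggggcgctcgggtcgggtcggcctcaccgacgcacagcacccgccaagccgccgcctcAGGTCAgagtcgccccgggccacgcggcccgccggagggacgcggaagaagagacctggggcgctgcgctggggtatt
Pparg, chr6:115362099-115362398: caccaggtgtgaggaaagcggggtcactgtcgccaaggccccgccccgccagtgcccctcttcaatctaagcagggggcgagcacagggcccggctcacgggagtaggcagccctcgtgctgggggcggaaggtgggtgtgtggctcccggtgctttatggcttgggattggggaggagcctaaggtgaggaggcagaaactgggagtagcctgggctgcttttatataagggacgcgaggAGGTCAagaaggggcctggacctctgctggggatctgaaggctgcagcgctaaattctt
Rara, chr11:98937446-98937745: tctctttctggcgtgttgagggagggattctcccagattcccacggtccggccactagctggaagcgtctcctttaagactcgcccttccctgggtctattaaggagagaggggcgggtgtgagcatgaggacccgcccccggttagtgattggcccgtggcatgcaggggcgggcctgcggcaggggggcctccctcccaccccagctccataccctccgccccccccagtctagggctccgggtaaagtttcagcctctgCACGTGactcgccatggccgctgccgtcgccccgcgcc
Rara, chr11:98964622-98964921: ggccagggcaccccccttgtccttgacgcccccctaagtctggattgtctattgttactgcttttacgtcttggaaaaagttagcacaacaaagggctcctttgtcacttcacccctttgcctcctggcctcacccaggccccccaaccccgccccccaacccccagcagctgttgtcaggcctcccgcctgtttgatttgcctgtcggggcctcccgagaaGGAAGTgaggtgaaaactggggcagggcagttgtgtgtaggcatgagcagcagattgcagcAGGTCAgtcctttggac
Each of the Pparg windows holds AGGTCA, with its first base at -28 and -9 from the start (0 is the first transcribed base). The first Rara window holds the E-box CACGTG at 12, and the second holds the ETS core GGAAGT at -28 and AGGTCA at 33. A window of Rara at another start, chr11:98939461-98939760, and a window of Pparg at chr6:115421816-115422115 held none of the strings.

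Windows of 28 members, 42 in all, were searched on both strands for 4 strings: the half-site AGGTCA, the ETS core GGAAGT, the palindromic Smad-binding element GTCTAGAC and the E-box CACGTG. No matches of different strings overlapped. AGGTCA was present in 9 of the 42 windows, against 16.3% of 32851 RefSeq windows of the same length. GGAAGT was present in 7, against 23.8%, and CACGTG in 3, against 7.15%. GTCTAGAC was present in 1 window, that of Esr1 at chr10:4611739-4612038, against 0.213% of all windows. Some windows of 1 gene overlap, and a match describes letters only. Ncoa2, Ncoa3, Nr3c1 and Thra had no window in the table used.

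Counts of called members are read here against the share of all 12519 tested genes that passed the same test (limma, Benjamini-Hochberg adjusted p of at most 0.05). In KO against WT microglia, 42.5% of all tested genes were called, and 9 of 27 members were (33.3%), 7 higher (21.9% of all genes) and 2 lower (20.6% of all genes). In KO against WT macrophages, 31.4% of all genes were called and 12 members were (44.4%), 5 higher (16.0% of all genes) and 7 lower (15.4% of all genes). WT macrophages against WT microglia gave 39.4% of all genes and 11 members (40.7%), 7 higher (19.2% of all genes) and 4 lower (20.2%). KO macrophages against KO microglia gave 10.5% of all genes and 5 members (18.5%), 3 higher (5.45% of all genes) and 2 lower (5.05%). The difference of the KO effects, macrophages minus microglia, was called for 25.8% of all genes and for 8 members (29.6%). The shares lie near their backgrounds or apart by a few members, and no test of members against other genes was made. The members' median log2 differences, in the same order of comparisons, were 0.19, -0.08, 0.18, -0.03 and -0.33, beside medians of all tested genes of -0.01, 0.001, -0.003, -0.004 and 0.002.

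Between the 2 KO against WT comparisons, which use separate libraries but share 1 estimate of the spread, 7 members were called in both: 7 of the 9 called in microglia and 7 of the 12 called in macrophages. Of all tested genes, 20% were called in both, and of the 27 tested members 7, which is near that background. Pparg, Nr1h3, Rara and Thra were higher and Ppard and Nr2c2 lower in KO cells of both origins, and Rora was higher in KO microglia and lower in KO macrophages. Rarg and Ncoa1 were called in the microglia comparison, and Rxra, Rxrb, Nr3c2, Nr1d2 and Nr4a3 in the macrophage comparison. Only for Ncoa1 and Rxra of these 7 was the difference between the origins itself called. In all, 19 of 27 members were called in at least 1 of the 5 comparisons, beside 62.5% of all tested genes, and 8 tested members in none: Nr1h2, Esrra, Nr2c1, Nr6a1, Nr1d1, Nr4a1, Nr4a2 and Ncoa3.

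**Figure D1:**
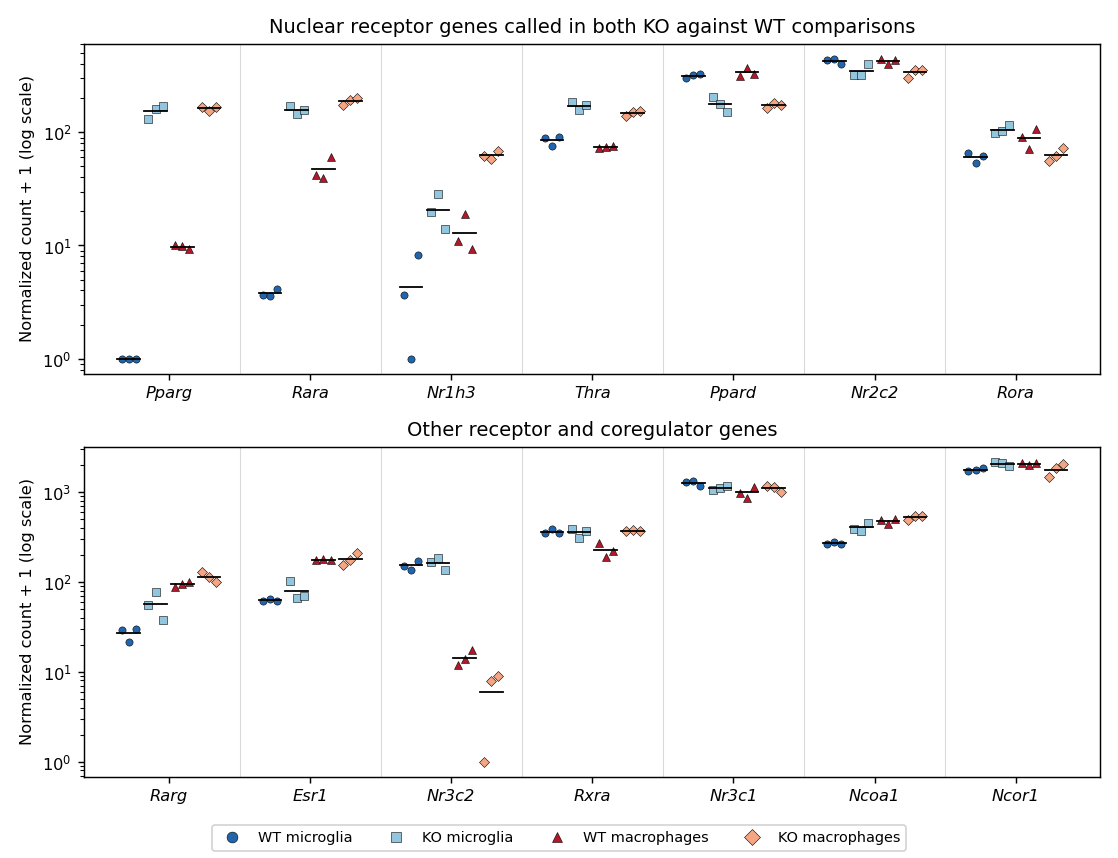
Normalized count + 1 on a log axis for 14 members in each of the 12 libraries, with symbols for libraries (n = 3 in each of the 4 groups) and black bars for group means. The upper panel holds the 7 members called in both KO against WT comparisons. WT microglia libraries are at 0 for Pparg and between 2.58 and 3.105 for Rara, while both KO groups are above 100 for these genes, and Nr3c2 is high in both microglia groups.

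The fatty acid receptors of the PPAR class moved in opposite directions. Pparg, which encodes the receptor PPAR-gamma of lipid storage and lipid handling (ENSMUSG00000000440, GRCm38 chromosome 6, 115360951 to 115490399), had 0 reads in all 3 WT microglia libraries and stood at 131, 159 and 171 normalized counts in KO microglia. WT macrophages held 9.10, 8.90 and 8.23, and KO macrophages 166.5, 154 and 168. The KO groups overlapped, WT macrophages were low and WT microglia were at 0, with no overlap between WT and KO.

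Against a limit of 3 reads over the WT microglia group, Pparg was higher in KO microglia by at least 7.22 on the log2 scale (limma adjusted p = 2.06e-12), and at least 8.35-fold higher in WT macrophages than in WT microglia (adjusted p = 3.94e-08). In KO macrophages its mean was 18.6 times that of WT macrophages (log2 4.07 ± 0.24 (SE), adjusted p = 1.14e-08). KO macrophages and KO microglia had a log2 difference of 0.09 (95% interval -0.42 to 0.60). The log2 KO effect in macrophages minus that in microglia was -3.19 ± 0.34 (adjusted p = 5.76e-06). Its size depends on the pseudocount, since WT microglia were at 0, and it ran from -4.04 to -0.82 over the alternatives, called in each. In bulk libraries, fewer cells with a transcript and less transcript per cell cannot be told apart.

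Ppard, the widely expressed PPAR-delta (ENSMUSG00000002250, chromosome 17, 28232700 to 28301474), was at 300.5, 323 and 326 in the WT microglia libraries and 203, 177 and 151 in the KO microglia libraries. It was at 314, 374 and 327 in the WT macrophage libraries and 165, 181 and 175 in the KO macrophage libraries. Every KO library was below every WT library, and the origins overlapped within each genotype. Ppard fell by 0.84 ± 0.11 on the log2 scale in microglia (adjusted p = 2e-05) and by 0.96 ± 0.11 in macrophages (adjusted p = 1.39e-05), and the difference between these effects was -0.11 (95% interval -0.46 to 0.23). Per kilobase of exon, Ppard stood at 42.1 normalized counts in WT microglia and 23.6 in the KO microglia libraries, where Pparg stood at 52.05. In KO macrophages the values per kilobase were 23.1 for Ppard and 55.1 for Pparg. Ppara, the PPAR-alpha of fatty acid oxidation, had 10 reads in all 12 libraries together.

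Of the oxysterol receptors, Nr1h3 (LXR-alpha, the inducible form, known for cholesterol efflux) rose in KO cells. It stood at 2.64, 0 and 7.245 in the WT microglia libraries, 18.7, 27.5 and 12.9 in the KO microglia libraries, 10.0, 17.8 and 8.23 in the WT macrophage libraries and 60.8, 57.6 and 67.5 in the KO macrophage libraries. The KO libraries were above the WT libraries of their origin, and KO microglia overlapped with WT macrophages. The log2 difference was 2.67 ± 0.58 in microglia (adjusted p = 0.0016) and 2.34 ± 0.58 in macrophages (adjusted p = 0.00677), at 10 and 35 reads in the WT groups. WT macrophages were higher than WT microglia by 1.997 ± 0.58 (adjusted p = 0.0133), a call that ended without WT microglia replicate 2 or WT macrophages replicate 2 (adjusted p from 0.0537 to 0.0624). KO macrophages minus KO microglia was 1.67 (95% interval 0.42 to 2.91, adjusted p = 0.0904), and was called without WT microglia replicate 2 or 3 (0.0139 to 0.0342) and under 3 other alternatives: a pseudocount of 10, voom on whole reads and a fit of the 2 groups only (0.000686 to 0.00799). Nr1h2 (LXR-beta, the ubiquitous form) was at 303 to 340 in the WT microglia libraries, 306 to 382 in the KO microglia libraries, 273 to 300.4 in the WT macrophage libraries and 308 to 400.2 in the KO macrophage libraries. None of its 5 comparisons was called, and the largest difference was in KO against WT macrophages, with a log2 value of 0.27 (95% interval 0.03 to 0.51). It was called without KO macrophages replicate 3 (adjusted p = 0.0302). Per kilobase, Nr1h2 was the more abundant LXR transcript, at 104.5 normalized counts in KO macrophages against 24.6 for Nr1h3.

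The RXR genes encode the shared dimer partner of the PPAR, LXR, retinoic acid, vitamin D and thyroid hormone receptors. Rxra (chromosome 2, 27676440 to 27762957) was at 345, 386.5 and 349 in the WT microglia libraries and 386, 311 and 369.8 in the KO microglia libraries. WT macrophages were lower, at 267, 191 and 221, and KO macrophages stood at 365, 379 and 364, so that 1 group of the 4 lay apart. Rxra rose by 0.72 ± 0.12 in KO macrophages (adjusted p = 0.000307), and WT macrophages minus WT microglia gave -0.68 ± 0.12 (adjusted p = 0.000312). KO and WT microglia differed by -0.02 (95% interval -0.28 to 0.23), and the KO effects of the origins differed by 0.74 ± 0.17 (adjusted p = 0.0045).

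Rxrb, a ubiquitous family member, was at 211.5, 193 and 201.8 in the WT microglia libraries, 173, 167 and 170.4 in the KO microglia libraries, 204, 189 and 169 in the WT macrophage libraries and 116.8, 161 and 162 in the KO macrophage libraries. KO libraries lay below the WT libraries of their origin. Rxrb fell by 0.37 ± 0.13 in KO macrophages (adjusted p = 0.0425). That call ended on leaving out any 1 of 9 libraries (all microglia libraries, WT macrophages replicates 1 and 2, and KO macrophages replicate 1), with adjusted p from 0.0506 to 0.168, and under 5 other alternatives (0.0586 to 0.126). Rxrg, typical of muscle and brain, had 19 reads in the 12 libraries.

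Among the retinoic acid receptors, which bind all-trans retinoic acid as RXR dimers, Rara had its lowest level in WT microglia, as Pparg did. Rara (ENSMUSG00000037992, chromosome 11, 98927818 to 98974942) stood at 2.64, 2.58 and 3.105 in the WT microglia libraries and 169.9, 144.5 and 158 in the KO microglia libraries. It stood at 41.0, 38.1 and 59.3 in the WT macrophage libraries and 174.5, 192 and 200.4 in the KO macrophage libraries. WT microglia were lowest, WT macrophages lay between, and every KO library was above every WT library.

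The Rara mean in KO microglia was 56.8 times that in WT microglia, where the 3 libraries held 8 reads together (log2 5.39 ± 0.20, adjusted p = 8.35e-12). In macrophages the ratio was 4.10 (log2 2.04 ± 0.20, adjusted p = 2.03e-06), and WT macrophages were above WT microglia by log2 3.62 ± 0.20 (adjusted p = 1.82e-09). The KO effect in macrophages minus that in microglia was -3.36 ± 0.28 (adjusted p = 5.72e-07), and KO macrophages minus KO microglia was 0.26 (95% interval -0.17 to 0.69). The microglia comparison, the WT comparison and the difference of effects all use the WT microglia libraries, where few reads make the sizes depend on the pseudocount. Over the alternatives, the Rara difference in microglia ran from 3.71 to 5.58 and its difference of effects from -3.55 to -1.87, called in each.

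Rarg, the third receptor of this class, was at 28.2, 20.6 and 29.0 in the WT microglia libraries, 55.0, 75.7 and 37.0 in the KO microglia libraries, 87.4, 94.05 and 98.8 in the WT macrophage libraries and 126, 113 and 98.4 in the KO macrophage libraries. Macrophage libraries were above microglia libraries of the same genotype. Rarg rose in KO microglia (log2 1.04 ± 0.23, adjusted p = 0.00194), and macrophages exceeded microglia by 1.82 ± 0.23 in WT (adjusted p = 1.51e-05) and 1.05 ± 0.23 in KO cells (adjusted p = 0.00751). KO against WT macrophages gave 0.26 (95% interval -0.23 to 0.76), and the difference of effects, -0.77 (95% interval -1.47 to -0.07, adjusted p = 0.0996), was called without KO microglia replicate 3 (adjusted p = 0.0203). Rarb had 4 reads in the 12 libraries, and 34.1% of its exon bases are shared with Top2b on the other strand. Per kilobase, Rara was below Rarg in WT microglia (0.636 against 6.09) and WT macrophages (10.6 against 21.9) and above it in KO microglia (36.1 against 13.1) and KO macrophages (43.3 against 26.5).

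Thra encodes thyroid hormone receptor alpha, the form that predominates in brain. It was at 89.0, 74.7 and 90.04 in the WT microglia libraries, 187, 155 and 172 in the KO microglia libraries, 71.9, 73.7 and 74.9 in the WT macrophage libraries and 138, 151 and 152 in the KO macrophage libraries (chromosome 11, 98740638 to 98769006). Every KO library was above every WT library. Thra rose by 1.01 ± 0.13 in microglia (adjusted p = 9.04e-06) and 0.99 ± 0.13 in macrophages (adjusted p = 2.82e-05), with a difference of -0.02 (95% interval -0.40 to 0.36). Thra shares 263 exon bases (5.7%) with Nr1d1 on the other strand, and Nr1d1 was at 14.8 to 43.2 in all libraries. Thrb had 67 reads in all and was at 4.41 to 11.25 normalized counts in the microglia libraries and at most 3.64 in the macrophage libraries. Vdr, the vitamin D receptor, had 20 reads.

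All 3 steroid receptors were called in WT macrophages against WT microglia, where 39.4% of all tested genes were called. Esr1 was higher and Nr3c1 and Nr3c2 were lower in the macrophages. Nr3c2, the mineralocorticoid receptor, which binds aldosterone and glucocorticoids (ENSMUSG00000031618, chromosome 8, 76899442 to 77245012), was at 148.9, 135 and 171 in the WT microglia libraries and 166, 183 and 133.4 in the KO microglia libraries. WT macrophages held 10.9, 12.7 and 16.5, and KO macrophages 0, 6.98 and 7.90. No macrophage library reached the lowest microglia library, and the microglia groups overlapped. The log2 difference of macrophages from microglia was -3.42 ± 0.58 in WT (adjusted p = 0.00024) and -5.28 ± 0.58 in KO cells (adjusted p = 1.8e-05), where the microglia means were 11.3 and 32.4 times those of macrophages.

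KO against WT microglia gave 0.08 for Nr3c2 (95% interval -1.16 to 1.32). That interval rests on the spread of all 4 groups, among them the 0 reads of KO macrophages replicate 1. Nr3c2 fell by 1.78 ± 0.58 in KO macrophages (adjusted p = 0.0303), at 42 reads in WT and 19 in the KO macrophage libraries. The call ended without WT macrophages replicate 1, 2 or 3 (adjusted p from 0.0556 to 0.0911) and under 4 other alternatives (0.0732 to 0.149). The 9 microglia markers above all fell in KO microglia, with a median log2 difference of -4.51, while the Nr3c2 means were 152 and 161. Those markers include Cx3cr1, whose gene dose also differs between KO and WT cells.

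Esr1, which encodes estrogen receptor alpha, was at 60.8, 63.1 and 60.03 in the WT microglia libraries, 101, 64.9 and 68.3 in the KO microglia libraries, 172, 180.5 and 176 in the WT macrophage libraries and 152, 175 and 209 in the KO macrophage libraries. All macrophage libraries were above all microglia libraries. Macrophages exceeded microglia by 1.51 ± 0.17 in WT (adjusted p = 3.44e-06) and 1.20 ± 0.17 in KO cells (adjusted p = 0.000156). The genotypes differed by 0.32 in microglia (95% interval -0.04 to 0.67) and 0.01 in macrophages (95% interval -0.35 to 0.36), neither of them called. Nr3c1, the glucocorticoid receptor, was among the 3 most abundant members per kilobase in each group. It was at 1301, 1328 and 1164 in the WT microglia libraries, 1065, 1107 and 1172 in the KO microglia libraries, 972, 863 and 1131 in the WT macrophage libraries and 1157, 1148 and 1011 in the KO macrophage libraries. WT macrophages minus WT microglia was -0.36 ± 0.10 (adjusted p = 0.00893), and this call ended without WT macrophages replicate 2 (adjusted p = 0.0528).

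**Figure D2:**
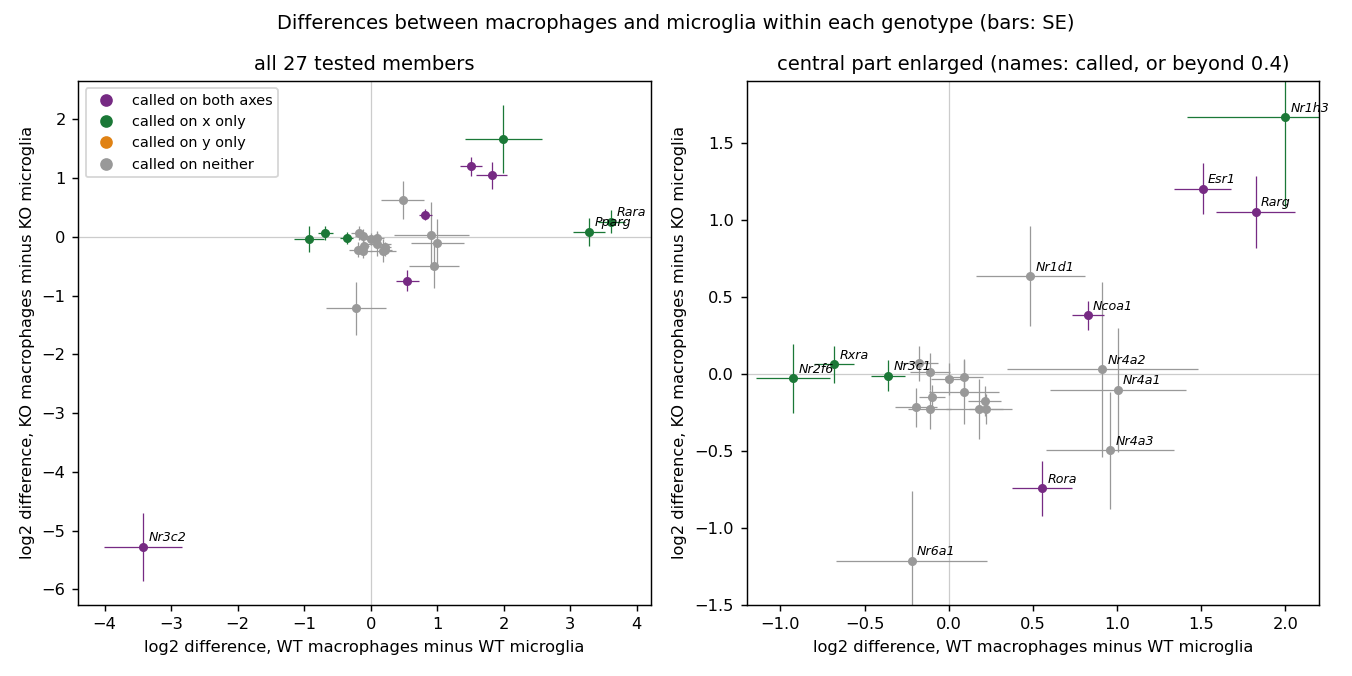
Log2 difference of macrophages minus microglia in WT cells (x axis) and in KO cells (y axis) for the 27 tested members, with SE bars and colours for the call. The right panel enlarges the centre. Nr3c2 lies at -3.42 and -5.28 and Esr1 and Rarg lie above 1 on both axes, while Pparg and Rara lie at 3.28 and 3.62 in WT cells and at 0.09 and 0.26 in KO cells.

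Of the 5 orphan receptors, Nr2c2 (TR4, a repressor or activator on direct repeats of the half-site) fell in KO cells of both origins. It was at 433, 444.5 and 405 in the WT microglia libraries, 320.1, 319 and 404 in the KO microglia libraries, 445, 402 and 435 in the WT macrophage libraries and 304, 353 and 358 in the KO macrophage libraries, with no overlap between genotypes of an origin. It fell by 0.30 ± 0.10 in microglia (adjusted p = 0.0293) and 0.34 ± 0.10 in macrophages (adjusted p = 0.0236). Of its exon bases, 30.7% are shared with Mrps25 on the other strand, whose means were 102, 132.6, 172 and 129 in WT and KO microglia and WT and KO macrophages. The microglia call ended without replicate 1 or replicate 2 of either microglia group (adjusted p from 0.0748 to 0.122), and with Ddx3y as a covariate, no filter or no variance trend (0.0548 to 0.0721). Ddx3y was high in 3 of 3 KO and 1 of 3 WT microglia libraries. The macrophage call ended without WT macrophages replicate 1 or 3 or KO macrophages replicate 1 (0.0681 to 0.0849) and with no variance trend (0.0572).

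Nr2f6 (EAR2) was at 67.9, 73.4 and 68.3 in the WT microglia libraries, 54.0, 54.1 and 39.4 in the KO microglia libraries, 38.2, 26.7 and 46.9 in the WT macrophage libraries and 43.2, 46.25 and 53.9 in the KO macrophage libraries. WT macrophages minus WT microglia was -0.92 ± 0.22 (adjusted p = 0.00371). KO minus WT microglia, without overlap, was -0.51 (95% interval -0.98 to -0.04, adjusted p = 0.0758) and not called. It was called without WT macrophages replicate 2 (0.0448) and under 2 other alternatives (0.0331 to 0.0411). The difference of the KO effects, 0.89 ± 0.31, passed narrowly (adjusted p = 0.0477) and was lost in 14 of 21 alternatives, among them on leaving out any 1 of 10 libraries, all but WT macrophages replicate 3 and KO macrophages replicate 1 (adjusted p from 0.059 to 0.116). More of its exon bases than not, 54.4%, are shared with Ocel1 on the other strand, whose mean was 72.7 in the WT microglia libraries and 121 in the KO microglia libraries, and whether counting used the strand is not given in the labels. Esrra (estrogen-related receptor alpha, a regulator of mitochondrial genes), Nr2c1 (TR2) and Nr6a1 (germ cell nuclear factor) were called in no comparison, with group means of 65.7 to 75.1, 115 to 124 and 24.5 to 51.5. The Nr6a1 differences of 0.86 in KO against WT microglia (95% interval -0.10 to 1.83) and -1.21 for KO macrophages against KO microglia (95% interval -2.18 to -0.25) were called without KO macrophages replicate 1 (adjusted p = 0.0172) and replicate 2 (0.0384), respectively. The microglia difference was also called with voom on whole reads (0.0449) and in a fit of the 2 groups only (0.0111).

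The clock-linked receptors bind the same response element, RORs as activators and REV-ERBs as repressors. Rora (chromosome 9, 68653786 to 69388246) was at 64.3, 52.8 and 61.1 in the WT microglia libraries and 98.2, 101.3 and 114 in the KO microglia libraries, and at 89.2, 69.9 and 107 in the WT macrophage libraries and 54.4, 61.1 and 71.1 in the KO macrophage libraries. The microglia groups did not overlap, while KO macrophages replicate 3 was above WT macrophages replicate 2. Rora rose in KO microglia by 0.81 ± 0.18 (adjusted p = 0.0017) and fell in KO macrophages by 0.49 ± 0.18 (adjusted p = 0.047), and the difference of these effects, -1.30 ± 0.25 (adjusted p = 0.00135), was called under each alternative. WT macrophages were above WT microglia by 0.55 ± 0.18 (adjusted p = 0.0219), and KO macrophages minus KO microglia was -0.74 ± 0.18 (adjusted p = 0.0124).

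The fall of Rora in KO macrophages was not called on leaving out any 1 of 9 libraries (WT microglia replicates 1 and 3, all KO microglia, WT macrophages replicates 1 and 3 and KO macrophages replicates 1 and 2), with adjusted p from 0.0532 to 0.196, nor under 3 other alternatives (0.0686 to 0.117). The WT difference ended without WT microglia replicate 2 or WT macrophages replicate 1 or 3 (0.0638 to 0.115). The KO difference ended without KO microglia replicate 3 (0.0641) and with Ddx3y as a covariate (0.0892). Nr1d2 (REV-ERB-beta) was at 224, 194.5 and 130.4 in the WT microglia libraries, 176, 128 and 168 in the KO microglia libraries, 177.5, 233 and 201 in the WT macrophage libraries and 131, 112 and 159 in the KO macrophage libraries, where it fell by 0.61 ± 0.19 (adjusted p = 0.0273). This call ended without WT macrophages replicate 2 or 3 or KO macrophages replicate 2 (0.0634 to 0.11), and with no variance trend (0.0643). Nr1d1 (REV-ERB-alpha) had group means of 22.9 to 36.6, and 8.55% of its exon bases are shared with Thra. It was called in no comparison, and KO macrophages minus KO microglia, its largest difference between groups, was 0.63 (95% interval -0.06 to 1.32).

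**Figure D3:**
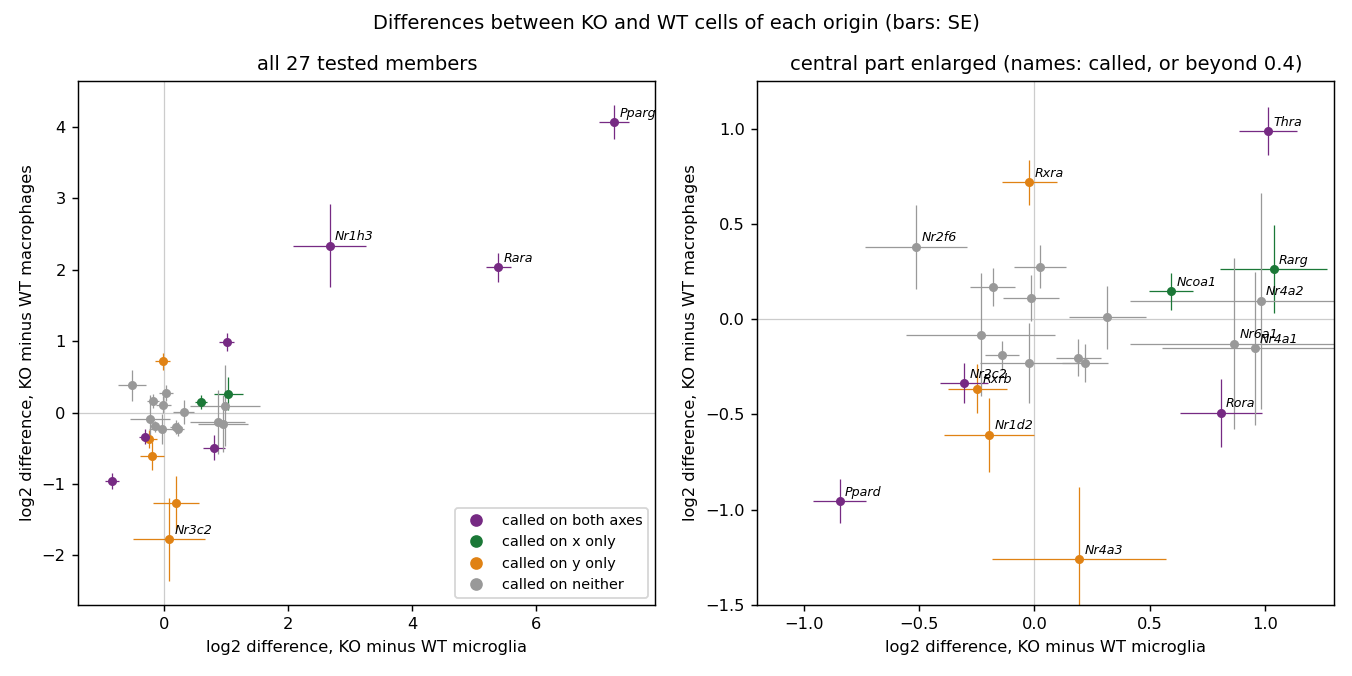
Log2 difference of KO minus WT in microglia (x axis) and macrophages (y axis) for the 27 tested members, with SE bars and colours for the call. The right panel enlarges the centre. Pparg, Rara, Nr1h3 and Thra lie above 0 on both axes, Ppard and Nr2c2 below 0 on both, and Rora at 0.81 and -0.49.

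The NR4A receptors are immediate-early genes, known for rapid induction by cell stimulation. Nr4a1 was at 92.5, 88.9 and 267 in the WT microglia libraries, 338, 197 and 244 in the KO microglia libraries, 287, 338 and 185 in the WT macrophage libraries and 418, 153 and 204 in the KO macrophage libraries. WT microglia replicate 3 lay within the range of the other groups, and KO macrophages replicate 1 was the highest of the 12. No comparison of Nr4a1 was called: KO minus WT microglia was 0.95 (95% interval 0.09 to 1.81, adjusted p = 0.0708) and WT macrophages minus WT microglia 1.00 (0.14 to 1.87, adjusted p = 0.0611). Without WT microglia replicate 3, both Nr4a1 differences were called (adjusted p = 0.00372 and 0.00352). The first was also called without KO macrophages replicate 1, and the second without that library, KO macrophages replicate 2 or WT macrophages replicate 3. Both were called with voom on whole reads (0.0495 each), and the first in a fit of the 2 groups only (0.0339). WT microglia replicate 3 was the only library of its group with high Ddx3y, which was high in every KO microglia library. Without it, sex and genotype could not be told apart in microglia.

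Of 21 other immediate-early genes, 5 were higher and 1 lower in KO microglia and 4 higher and 1 lower in KO macrophages, shares near those of all tested genes or below. In WT macrophages against WT microglia, 2 were higher and 9 lower (median -0.50), beside 19.2% and 20.2% of all tested genes. There the values of Nr4a1 and Nr4a3 were 1.00 and 0.96 and not called. The summed level of the 21 genes also differed between libraries of a group. It was 29260 normalized counts in WT microglia replicate 3, against 21940 and 21560 in its group, and 35900 in KO macrophages replicate 1, against 15420 and 15260. In KO microglia the sum was highest in replicate 1, at 33290, the library with the highest Nr4a1, Nr4a2 and Nr4a3 of that group. The part of these shifts in the Nr4a comparisons was not tested. Nr4a3 was at 24.7, 12.9 and 31.05 in the WT microglia libraries, 39.3, 17.7 and 21.7 in the KO microglia libraries, 36.4, 52.1 and 41.15 in the WT macrophage libraries and 24.0, 11.3 and 18.7 in the KO macrophage libraries. It fell by 1.26 ± 0.38 in KO macrophages, without overlap (adjusted p = 0.0195). The call ended without WT macrophages replicate 2 or KO macrophages replicate 2 (adjusted p from 0.0754 to 0.0781). For Nr4a3, WT macrophages minus WT microglia (adjusted p = 0.0568, without overlap) was called in 8 of 21 alternatives. Its difference of KO effects, -1.46 ± 0.53 (adjusted p = 0.0584), was called in 6 of 20. Nr4a2 had 93 reads in all, 1.29 to 15.7 normalized counts per library, and no call.

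**Figure D4:**
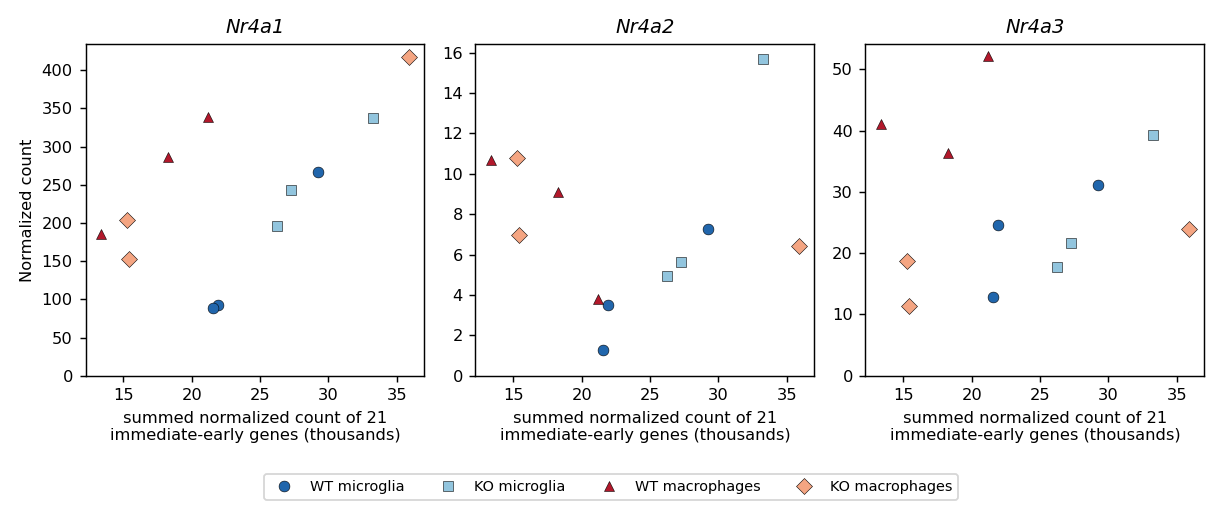
Normalized counts of Nr4a1, Nr4a2 and Nr4a3 (y axes, from 0) against the summed normalized count of 21 immediate-early genes (x axis), 1 symbol per library and 3 libraries in each of 4 groups. Nr4a1 is at 88.9 and 92.5 in 2 WT microglia libraries and at 418 in the KO macrophage library with the highest sum, and the WT macrophages are the highest group for Nr4a3.

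Of the 4 coregulators, Ncoa1 was called in 4 of the 5 comparisons. Ncoa1 (SRC-1) was at 262, 276 and 262 in the WT microglia libraries, 389.9, 368 and 453 in the KO microglia libraries, 492, 435 and 494 in the WT macrophage libraries and 485, 539 and 546 in the KO macrophage libraries. WT microglia lay below all other groups. Ncoa1 rose in KO microglia by 0.59 ± 0.10 (adjusted p = 0.000114), WT macrophages exceeded WT microglia by 0.82 ± 0.10 (adjusted p = 5.57e-06) and KO macrophages exceeded KO microglia by 0.38 ± 0.10 (adjusted p = 0.0177). KO against WT macrophages gave 0.14 (95% interval -0.06 to 0.35), and the difference of the KO effects was -0.45 ± 0.14 (adjusted p = 0.0237). The KO difference between origins ended without KO microglia replicate 1 or 2 or KO macrophages replicate 2 or 3 (adjusted p from 0.0605 to 0.0969). It also ended under 3 other alternatives, among them Ddx3y as a covariate (0.0555 to 0.0646). The difference of effects ended without WT microglia replicate 1, KO microglia replicate 3 or WT macrophages replicate 1 or 3 (0.051 to 0.0627). Ddx3y as a covariate, no filter or no variance trend ended that call too (0.0529 to 0.0784).

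Ncor1, which holds histone deacetylase 3 on unliganded receptors, was at 1725, 1769 and 1827 in the WT microglia libraries, 2155, 2096 and 1952 in the KO microglia libraries, 2094, 2002 and 2101 in the WT macrophage libraries and 1465, 1831 and 2041 in the KO macrophage libraries. No comparison between 2 groups was called, although KO against WT microglia was called without KO macrophages replicate 1 or 3 (adjusted p = 0.0108 and 0.0498) and under 2 other alternatives (0.00992 to 0.0219). WT macrophages against WT microglia was called without KO macrophages replicate 1 (0.0119) and under 3 others (0.0111 to 0.0277), and both KO against WT macrophages and KO macrophages against KO microglia without KO macrophages replicate 3 (0.015 and 0.038). The KO effects on Ncor1 differed between origins by -0.45 ± 0.14 (adjusted p = 0.0291). Its KO microglia libraries were above the WT microglia libraries, and 2 of 3 KO macrophage libraries were below all WT macrophage libraries. Ncoa2 (SRC-2) was at 797, 858 and 706 in the WT microglia libraries, 889.7, 838 and 961 in the KO microglia libraries, 886, 902 and 945 in the WT macrophage libraries and 689.9, 829.8 and 864 in the KO macrophage libraries. The microglia groups of Ncoa2 overlapped, its KO macrophages lay below its WT macrophages, and the difference of effects was -0.39 ± 0.14 (adjusted p = 0.0493). The Ncor1 call ended on leaving out replicate 1 or replicate 2 of either microglia group, or replicate 1 or replicate 3 of the WT macrophages (adjusted p from 0.0552 to 0.0711). It also ended with Ddx3y as a covariate (0.104) or no variance trend (0.0841). The Ncoa2 call ended without any 1 of 10 libraries, all but WT microglia replicate 2 and KO macrophages replicate 3 (0.0505 to 0.114). Ddx3y as a covariate, no filter or no variance trend ended the Ncoa2 call too (0.0883 to 0.115). KO macrophages replicate 1 was the lowest library for both genes. Ncoa3 (SRC-3), the most abundant member per kilobase in each group at 221 to 270.5 normalized counts, had group means of 1745 to 2135 and no call.

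Other genes of these pathways came from lists drawn up from general knowledge, but with earlier results of these data known. Their counts describe, with no test of the list. Each list count below is to be read beside the shares of all tested genes. These were 21.9% higher and 20.6% lower in KO microglia, and 16.0% higher and 15.4% lower in KO macrophages. Among 13 tested LXR targets, 1 of them the member Nr1h3, 8 were higher and 2 lower in KO microglia, and 9 higher and 1 lower in KO macrophages. The medians were 1.53 and 1.03, against -0.01 and 0.001 for all tested genes. Pltp, a phospholipid transfer protein, had means of 9.76 and 1548 in WT and KO microglia and 102 and 1671 in WT and KO macrophages, and rose in both. The efflux transporters Abca1 and Abcg1 rose in both origins, Abca1 by 1.91 ± 0.13 and 0.72 ± 0.13 and Abcg1 by 1.53 ± 0.12 and 1.60 ± 0.12. Exceptions were Lpcat3 and Mylip, which fell in KO microglia (-1.40 ± 0.15 and -0.68 ± 0.09) and were not called in macrophages, and Apoe, which rose in KO microglia (5.98 ± 0.15) and fell in KO macrophages (-0.53 ± 0.15).

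Of 14 tested PPAR targets, 9 were higher and 5 not called in KO microglia, and 7 were higher and 7 not called in KO macrophages. The medians were 0.82 and 0.64, against -0.01 and 0.001 for all tested genes. Lpl, lipoprotein lipase, which is also on the LXR list, rose by 2.78 ± 0.19 in microglia and 3.35 ± 0.19 in macrophages. The lipid droplet protein gene Plin2 rose by 3.25 ± 0.20 and 1.46 ± 0.20. The scavenger receptor Cd36 rose by 4.71 ± 0.34 in KO microglia, whereas its 0.64 ± 0.34 in macrophages was not called (adjusted p = 0.17), and the difference of these effects was -4.07 ± 0.48 (adjusted p = 1.7e-05). Cpt1a, the carnitine transferase of fatty acid oxidation, rose by 0.65 ± 0.10 in both origins.

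**Figure D5:**
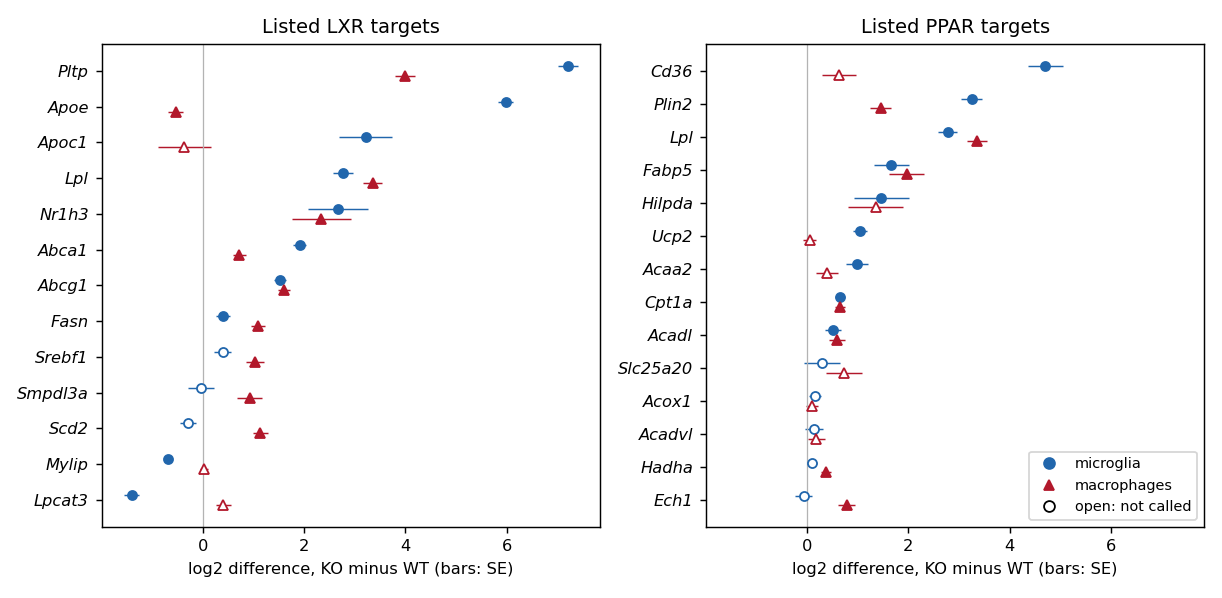
Log2 difference of KO minus WT with SE bars for the tested LXR and PPAR targets, in microglia (circles) and macrophages (triangles), open where not called. Filled symbols lie right of 0 except for Lpcat3 and Mylip in microglia and Apoe in macrophages.

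Of 5 tested retinoid pathway genes, 2 were higher and 2 lower in KO microglia and 1 was higher and 1 lower in KO macrophages. Dhrs3, a retinal reductase that is a known retinoic acid target, rose by 0.73 ± 0.14 in microglia and 0.81 ± 0.14 in macrophages. Tgm2, a transglutaminase that retinoic acid is also known to induce, fell in both origins, with means of 375 in WT and 8.22 in the KO microglia libraries, and of 172 in WT and 74.8 in the KO macrophage libraries. The retinoic acid hydroxylase gene Cyp26b1 was not tested: it stood at 2731 normalized counts in KO macrophages replicate 3 and at most 1.96 in the other 11 libraries. Rara stood at 200.4 in that library and at 174.5 and 192 in the others of its group.

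Of 8 tested genes of vitamin D, thyroid hormone and steroid metabolism, 4 were higher and 2 lower in KO microglia, while 2 were higher and 6 not called in KO macrophages. Cyp27a1, which makes an oxysterol ligand of LXR, rose by 2.61 ± 0.14 in microglia, to a mean of 1421, and by 0.63 ± 0.14 in macrophages, to 1278. Slc16a10, an aromatic amino acid and thyroid hormone transporter, rose by 0.79 ± 0.13 and 0.52 ± 0.13. Of 14 tested glucocorticoid-induced genes, 7 were higher and 3 lower in KO microglia and 7 higher and 1 lower in KO macrophages. Zbtb16 rose by 5.86 ± 0.28 and 1.08 ± 0.28, and Sgk1, a kinase gene that mineralocorticoids also induce, fell by 3.68 ± 0.13 and 1.22 ± 0.13. Some of these genes respond to many stimuli, and Dusp1 is also on the immediate-early list.

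Of 17 tested clock genes, 3 of them members, 4 were higher and 2 lower in KO microglia, 3 higher and 3 lower in KO macrophages, and 5 higher and 6 lower in WT macrophages against WT microglia. Of all tested genes, 19.2% were higher and 20.2% lower in that last comparison, and the KO counts were near or below the shares of all tested genes. Bhlhe41 (DEC2), a clock repressor, fell by 2.44 ± 0.12 and 1.51 ± 0.12 in the KO cells. Arntl (BMAL1), which REV-ERBs repress and RORs activate, rose by 1.05 ± 0.14 in KO microglia. Its 0.28 ± 0.14 in KO macrophages was not called. Per2 rose by 0.91 ± 0.20 in KO microglia and 1.20 ± 0.20 in KO macrophages. The labels give no time of day of collection. Of 17 other tested coregulators, 4 were higher and 5 lower in KO microglia and 2 higher and 3 lower in KO macrophages. These counts lay apart from the shares of all tested genes by a few genes at most. The corepressor gene Nrip1 (RIP140) fell in both, from 2474 to 857 and from 1524 to 748, while Ncoa7 rose from 56.4 to 329 and from 198.5 to 299. Of 21 other nuclear receptors on a list, 18 were in the table and none reached the filter.

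Markers of other cells and mitochondrial reads also differed between the groups. Mitochondrial reads made up 3.86 to 4.36% in WT and 5.84 to 7.68% in KO microglia, without overlap, and 3.18 to 5.35% in WT and 4.61 to 6.43% in KO macrophages. Of 6 monocyte markers in the table, summed levels were 45.8 to 61.8 in the WT microglia libraries, 743 to 800 in the KO microglia libraries, 302 to 342 in the WT macrophage libraries and 1530 to 1990 in the KO macrophage libraries, with Ly6c2 at 0 in all groups but KO macrophages (mean 0.821). The rise lay mainly in F13a1 (6.805 to 616 and 128 to 1433) and Ccr2, which macrophages also express. The 5 B cell markers summed to 29.6 to 51.1, 680 to 783, 69.9 to 100.1 and 439 to 562, nearly all of it Cd22, and Cd79a, Ms4a1 and Pax5 were at 0 in the WT microglia libraries and at means of at most 4.07 elsewhere. The 9 neuron markers summed to 15.9 to 27.1, 111 to 149.4, 31.9 to 55.9 and 79.7 to 147, with Syt1 at 0 in the WT microglia libraries. The 8 T and NK cell markers summed to at most 1.29 in the WT microglia libraries, 23.6 in the KO microglia libraries, 10.9 in the WT macrophage libraries and 113.5 in the KO macrophage libraries, mostly Cd4, with Trac and Nkg7 at 0 in the first 3 groups. The 8 astrocyte markers summed to 649 to 728, 261 to 330.0, 53.5 to 71.2 and 154 to 189 in the same order of groups. The sum was lower in KO than in WT microglia and higher in KO than in WT macrophages. Of 5 tested astrocyte markers, however, 4 were higher and 1 lower in KO microglia (median log2 1.91), so the sum hides a rise of most. The vessel cell markers, 6 in the table, summed to 134 to 249, 40.3 to 50.6, 58.3 to 70.8 and 91.2 to 153. Their sums were also lower in KO microglia and higher in KO macrophages than in WT cells. Only 3 vessel markers were tested. In KO microglia 1 was lower and 2 were not called, and in KO macrophages 1 was higher and 1 lower. Sums of the 8 oligodendrocyte markers were 414 to 425, 446 to 527, 326 to 361 and 358 to 631, and those of the 7 dendritic cell markers 56.9 to 109, 120.0 to 152, 50.1 to 65.0 and 91.2 to 127. The part of such cells and of the mitochondrial share in the members' levels was not tested.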

How the data were processed

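The deposited table held log2 values of 25904 genes in 12 libraries, made by the authors from a stranded pico-input total RNA kit, per the labels' protocols. Per the submitters' processing notes, STAR, bcl2fastq and CASAVA and the build GRCm38 belong to the upstream steps. No version, read counter, annotation or strand setting was given in those notes or the labels. Undoing the log2 gave whole reads for 100.0% of 310848 values (tolerance 0.01 reads, largest deviation 0.00305), so the unit is log2(reads divided by a median-of-ratios size factor + 1), with a pseudocount of 1.

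Gene symbols and coordinates came from a GENCODE annotation of GRCm38, which named 25730 of the identifiers. limma 3.58.1 in R 4.3.3 fitted 1 mean per group to the 12519 genes that reached a normalized count of 10 in 3 or more libraries, with eBayes and a mean-variance trend (8 residual degrees of freedom). The test was two-sided with Benjamini-Hochberg adjustment over all tested genes at 0.05. Log2 differences refer to log2(normalized count + 1), where the pseudocount shrinks the changes of low genes, and are given ± SE or with a 95% interval. A limit for 0 reads is 3 reads over a group, and accounts for counting error alone, because PCR copies were not marked by molecular identifiers. Members with a call and a highest group mean of at least 100 are given by library. Up to 6 called genes per list and comparison with a mean of at least 100 could be named, and Cyp26b1, Mylip, Cd4, F13a1, Ccr2, Cd22, Ddx3y, Mrps25 and Ocel1 were picked with their values already seen. The members and lists were chosen with earlier results of these data known. Alternatives were 10 other settings and leaving out each of the 12 libraries. Some genes of the lists are not reported here.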

Additional observations from a re-analysis of the deposited data

Results flagged for a closer look

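For 8 members, the effect of the KO differed between macrophages and microglia by limma's interaction term (adjusted p of at most 0.05 over all tested genes). The KO effect in macrophages minus that in microglia, on the log2 scale, was -3.194 for Pparg and -3.357 for Rara, which rose in both origins. It was 0.74 for Rxra, which rose in KO macrophages, and -1.299 for Rora, which rose in KO microglia and fell in KO macrophages. It was -0.447 for Ncoa1, which rose in KO microglia. For Nr2f6 (0.892), Ncoa2 (-0.393) and Ncor1 (-0.449), neither KO against WT comparison was itself called. The values of Pparg, Rara, Rxra and Rora were called under every alternative tried, and those of Nr2f6, Ncoa1, Ncoa2 and Ncor1 were not. The fall of Rora in KO macrophages, taken alone, was lost in 12 of 22 alternatives.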

How the results depend on the processing

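Over 45 calls of a member in a comparison, 29 were called under every alternative tried, 16 were lost under at least 1 and 0 changed sign. Of 90 member and comparison pairs without a call, 22 were called under at least 1 alternative. The count of members whose KO effects differed between origins, 8, was 5 with no filter on low values, 5 with eBayes without a trend and 4 with Ddx3y as a covariate, and ran from 4 to 9 when single libraries were left out, with 4 without WT microglia replicate 1 or WT macrophages replicate 1 and 5 without KO microglia replicate 1. The count for KO macrophages against KO microglia, 5, was 3 with Ddx3y as a covariate, without Rora and Ncoa1. The cause of these shifts was not tested. The other 3 counts stayed within 1.5 times of their values under each alternative. In KO against WT macrophages, the 5 higher calls held under each alternative, while of the 7 lower calls only that of Ppard did. Total-count scaling and quantile normalization moved the median of all tested genes by at most 0.07 (log2). Depth limits Ppara, Rxrg, Rarb, Vdr and Thrb, whose levels are too low to compare, and Nr1h3, Nr4a2 and the macrophage level of Nr3c2, where few reads set the values. No paired analysis was possible because the labels give no replicate numbers.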
